A study of Mus musculus with 4 samples.

Results

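Bmp2, Bmp4, Bmp5, Bmp6, Bmp7 and Bmp10 encode secreted bone morphogenetic proteins (BMPs), and Id1, Id2, Id3 and Smad6 are among the genes that cells switch on when they receive a BMP signal. These 10 genes, 6 ligands and 4 response genes, were taken by their symbols from the 27998 genes of a mouse single-cell RNA sequencing series, and all 10 were present in each of its 4 matrices. Their expression is described across cell classes of the atrioventricular canal and of the mitral valve. At embryonic day 9.5 (E9.5) the atrioventricular canal gave 1 library. The mitral valve gave 1 library at E16.5 and 2 at birth (P0). All animals were C57BL/6 and carried Tie2-Cre, which is active in endothelial and blood-forming cells, with a Rosa26 tdTomato reporter that marks those cells and their descendants. Tissue from at least 60 embryos per stage was pooled, per the labels, after microdissection, a digest of 5 or 10 min and sorting on tomato fluorescence, so no library is 1 animal. The tomato transcript is not among the genes listed, so its level in the sorted cells is not analysed here. E9.5 and E16.5 have no replicate, and whether the P0 pair comes from different litters is not given. Every p-value therefore rests on the spread between the 2 P0 libraries alone, which may be technical. That spread was pooled mainly or wholly over all genes.

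BMP ligands bind complexes of type I and type II receptor kinases, which phosphorylate Smad1, Smad5 and Smad9. These enter the nucleus with Smad4 and switch on Id genes, whose products block basic helix-loop-helix transcription factors, and Smad6, which feeds back to inhibit the same receptors. In the embryonic heart, BMP from the muscle of the atrioventricular canal is known to be needed for the endocardium beneath it to turn into the mesenchyme of the valve cushions.

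Windows at RefSeq starts (GRCm38) of Smad6, Id2 and Bmp4 are shown in part here, each 5′ to 3′ on the strand of the gene. Capitals mark GTCTAGAC (a palindrome made of a Smad-binding GTCT and its reverse complement), GGCGCC or GGAGCC (both Smad-binding motifs of BMP-responsive enhancers), each searched on both strands, so that GGCTCC is GGAGCC on the other strand. The Smad6 stretch, shown as the response gene with the rarest motif, is chr9:64022056-64022309 (minus strand) and runs 4 bases past the RefSeq start of the gene.
Smad6: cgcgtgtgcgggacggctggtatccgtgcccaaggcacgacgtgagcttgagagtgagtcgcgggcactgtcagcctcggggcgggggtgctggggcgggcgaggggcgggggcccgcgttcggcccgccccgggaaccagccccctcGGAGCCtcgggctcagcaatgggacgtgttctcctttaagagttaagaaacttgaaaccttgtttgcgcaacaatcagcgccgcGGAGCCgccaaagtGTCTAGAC
The Id2 stretch, shown because it held GGCGCC, is chr12:25096254-25096342 (minus strand). It precedes a RefSeq start inside the Id2 span given below, so it lies within the gene and not before its 5′ end. Only the first 89 bases of the window are shown, up to an annotated untranslated region, so the bases next to that start are left out. The GGAGCC of the Id2 window, 88 bases before that start, is among the bases not shown.
Id2: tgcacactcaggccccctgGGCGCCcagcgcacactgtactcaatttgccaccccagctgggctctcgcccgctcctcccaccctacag
The Bmp4 stretch, shown as a ligand for contrast, is chr14:46390670-46390919 (minus strand).
Bmp4: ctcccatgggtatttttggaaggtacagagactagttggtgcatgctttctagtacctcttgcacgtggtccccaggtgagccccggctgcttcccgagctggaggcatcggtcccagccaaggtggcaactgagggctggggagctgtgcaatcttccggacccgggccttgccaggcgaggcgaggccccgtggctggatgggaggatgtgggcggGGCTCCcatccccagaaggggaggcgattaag
Windows of 300 bases (250 before the start and 50 from it on) were given for 7 of the 10 members and for 32851 windows in all. GTCTAGAC lay in 70 windows (0.213%), and of the members in Smad6 alone, where it spans the start. GGCGCC lay in 11.9% of windows and of the members in Id2 alone. GGAGCC lay in 30.9% of windows and in those of Id2, Id3, Smad6 and Bmp4. The short GTCT, which GTCTAGAC contains, lay in 88.0% of windows and in all 7 members, so it separates nothing. A match is a description of letters. Id1, Bmp2 and Bmp7 have no window in this table.

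In GRCm38, Bmp2 lies on chromosome 2 at 133552159-133562885 (plus strand), Bmp4 on chromosome 14 at 46383520-46390669 (minus), Bmp5 on chromosome 9 at 75775364-75900310 (plus) and Bmp6 on chromosome 13 at 38345107-38500302 (plus). Bmp7 lies on chromosome 2 at 172868012-172940321 (minus) and Bmp10 on chromosome 6 at 87428994-87437677 (plus). Id1 lies on chromosome 2 at 152736251-152737410 (plus), Id2 on chromosome 12 at 25093799-25097140 (minus), Id3 on chromosome 4 at 136143497-136145755 (plus) and Smad6 on chromosome 9 at 63953076-64022059 (minus). These spans are whole genes. Because 3′ tags were counted, no value refers to 1 exon or isoform.

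The E9.5 library held 1206 cells and 30819374 unique molecular identifiers (UMIs, 1 per captured RNA molecule). The E16.5 library held 452 cells and 1021188 UMIs, P0 replicate 1 held 291 cells and 1836768 UMIs, and P0 replicate 2 held 211 cells and 1086623 UMIs. The median cell had 24564.5 UMIs in the E9.5 library, 1914.5 in the E16.5 library, 5029 in P0 replicate 1 and 3934 in P0 replicate 2, so low genes are far better resolved at E9.5. After filters, 1194, 311, 282 and 173 cells were kept. Each library was clustered alone with the 10 members and 39 other BMP pathway genes left out, and clusters were named from marker lists. Although cells were sorted on a Tie2-Cre reporter, the E9.5 library held many cells with markers of other lineages: 222 canal-type, 218 atrial chamber-type and 65 ventricular chamber-type cardiomyocyte-like cells, 123 posterior heart field-like and 26 proepicardial or epicardial-like cells, beside 104 cushion-forming-like, 88 endothelial-like and 243 erythroid-like cells. The canal-type cells had 4 of 5 canal markers, such as Rspo3, raised in both of their clusters, the cushion-forming-like cells 7 of 10 cushion markers together with 9 of 12 endothelial ones, and the endothelial-like cells all 12 endothelial markers. A cluster of 68 cells led by Crabp1, Lum and Barx1 stayed unnamed, and a further 24 epithelial-like and 13 immune or megakaryocyte-like cells complete the library.

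At E9.5 every ligand with at least 10 UMIs had its highest level in a cardiomyocyte-like class or in heart field-like cells. Id3 and Smad6 had their highest levels in cushion-forming-like and endothelial-like cells, and Id2 in canal-type cells. A gene was counted as raised in a class where its share of UMIs was at least 2-fold that in all other kept cells of the library, with 0.1 per 10000 UMIs added to both, which is a description of 1 library and no test. In canal-type cells 4 of 9 members with at least 10 UMIs were raised, against 3.02% of 14028 genes: Bmp2, Bmp5, Bmp7 and Id2. In cushion-forming-like cells Id1, Id3 and Smad6 were raised, against 3.57% of genes, and the same 3 members were raised in endothelial-like cells, against 4.01% of genes. No member was raised in proepicardial or epicardial-like, immune or megakaryocyte-like or erythroid-like cells, against 2.75%, 5.06% and 1.42% of genes. No ligand was raised in cushion-forming-like or endothelial-like cells, and of the 4 response genes only Id2 was raised in a cardiomyocyte-like class. Outside the members, the pathway genes Msx2, Bambi and Id4 were raised in canal-type cells as well, as given below. Intervals given below are exact Poisson 95% intervals for levels and exact Clopper-Pearson 95% intervals for shares, and cover counting error only.

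Bmp2, the ligand required for cushion formation in the mouse, was the ligand with the largest share in 1 class. Canal-type cells had 2.69 Bmp2 UMIs per 10000 (2.55 to 2.84), 8.40-fold the rest of the library, and held 1414 of the 2001 Bmp2 UMIs in kept cells (70.7%). Both canal-type clusters were high, with 2.56 and 2.89 per 10000, and no other class reached 1 per 10000. Proepicardial or epicardial-like cells had 0.942 per 10000 (0.744 to 1.18), atrial cells 0.407 (0.354 to 0.465), heart field-like cells 0.373 (0.305 to 0.451) and ventricular cells 0.220 (0.148 to 0.314). The atrial clusters differed from each other, at 0.150 and 0.528. Cushion-forming-like cells had 0.171 per 10000 (0.121 to 0.233), endothelial-like cells 0.0669 (0.0366 to 0.112) and erythroid-like cells, which should lack the gene, 0.0478 (0.0338 to 0.0656). The intervals of the endothelial-like and erythroid-like cells overlapped, so Bmp2 in endothelial-like cells was not detectably above the level that free RNA gives, while the cushion-forming-like level was. The summed cardiomyocyte markers, which neither class should make, were 18.5 per 10000 in cushion-forming-like cells and 16.9 in erythroid-like cells. Among the genes found in at least 20% of a cluster's cells, Bmp2 ranked 6th of 7760 by fold in one canal-type cluster and 11th of 6913 in the other, although it was not used to make them.

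The share of cells with a Bmp2 UMI was also highest in canal-type cells, but its interval overlapped that of proepicardial or epicardial-like cells. With each cell thinned to 5000 UMIs, 55.9% of canal-type cells (49.1 to 62.5) had at least 1 Bmp2 UMI, and 77.9% had one without thinning. After thinning the share was 42.3% of proepicardial or epicardial-like cells (23.4 to 63.1), 13.8% of heart field-like cells, 10.1% of atrial cells, 5.77% of cushion-forming-like cells (2.15 to 12.1) and 3.41% of endothelial-like cells. Erythroid-like cells had 2.47%, at a median depth of 32399 UMIs per cell against 23664 in canal-type cells and 22649.5 in cushion-forming-like cells. The shares in cushion-forming-like and endothelial-like cells, unlike the cushion-forming-like level above, lie within the counting error of the erythroid-like background.

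Bmp4, a ligand made by many embryonic progenitor fields, was highest in posterior heart field-like cells, the Osr1-positive and Foxf1-positive mesoderm behind the heart. These cells had 1.16 UMIs per 10000 (1.04 to 1.29), 4.07-fold the rest, and 36.3% of the library's 907 Bmp4 UMIs. It was the only member raised there, against 1.54% of genes. Ventricular cells followed with 0.754 (0.616 to 0.915), 2.27-fold the rest, and were the only class with both Bmp4 and Bmp10 raised, against 1.4% of genes. Their 103 Bmp4 UMIs lay in 16 of 65 cells (24.6%), against 56.9% of heart field-like, 46.2% of proepicardial or epicardial-like, 30.9% of unnamed and 30.6% of canal-type cells with a Bmp4 UMI (all without thinning), so the ventricular class stood second by level but not by share of cells. Canal-type cells had 0.453 (0.397 to 0.514), the unnamed cells 0.399 and atrial cells 0.164, and the intervals of the canal-type and unnamed cells overlapped. Endothelial-like cells had 0.167 (0.116 to 0.233), against 0.0175 (0.00477 to 0.0448) in cushion-forming-like cells and 0.00503 in erythroid-like cells, so the 4 UMIs found in the 104 cushion-forming-like cells are near the background while the 35 in endothelial-like cells are above it.

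Bmp7, which acts alone or paired with other BMPs and is widely made by embryonic myocardium, was spread over all 3 cardiomyocyte-like classes. Atrial cells had 1.42 UMIs per 10000 (1.32 to 1.53), 3.13-fold the rest and the only member raised there (2.17% of genes were). Canal-type cells had 1.11 (1.03 to 1.21), 2.22-fold the rest, and ventricular cells 1.01 (0.849 to 1.19), and the intervals of these overlapped. After thinning, 51.8% of atrial, 38.5% of ventricular and 35.1% of canal-type cells had a Bmp7 UMI, against 2.06% of erythroid-like cells. Epithelial-like cells had 0.586 and heart field-like cells 0.510 per 10000, cushion-forming-like cells 0.0350 (8 UMIs) and endothelial-like cells 0.00956 (2 UMIs), both with intervals that overlap that of erythroid-like cells at 0.0264.

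Bmp5, a close relative of Bmp7, had a similar distribution at 380 UMIs in all. Canal-type cells had 0.299 per 10000 (0.254 to 0.349), 2.12-fold the rest, ventricular cells 0.293 (0.209 to 0.399) and atrial cells 0.224 (0.185 to 0.268). The intervals of the 3 classes overlap, and the 2 canal-type clusters themselves had 0.233 and 0.3998. Bmp10, a ligand of trabeculated and atrial myocardium, had 66 UMIs, of which 29 (43.9%) lay in the 65 ventricular cells, at 0.212 per 10000 (0.142 to 0.305). Atrial cells had 0.0366 (0.0220 to 0.0572) and canal-type cells 0.0171 (0.00783 to 0.0325), so the ventricular level stood clear of both. Endothelial-like and erythroid-like cells had 0 Bmp10 UMIs, which allows levels up to 0.0176 and 0.00464 per 10000 (upper Poisson bounds), and cushion-forming-like cells had 1. Bmp6, another ligand of the same subgroup as Bmp5 and Bmp7, had 5 UMIs in 5 of the 1194 cells and is not resolved.

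**Figure D1:**
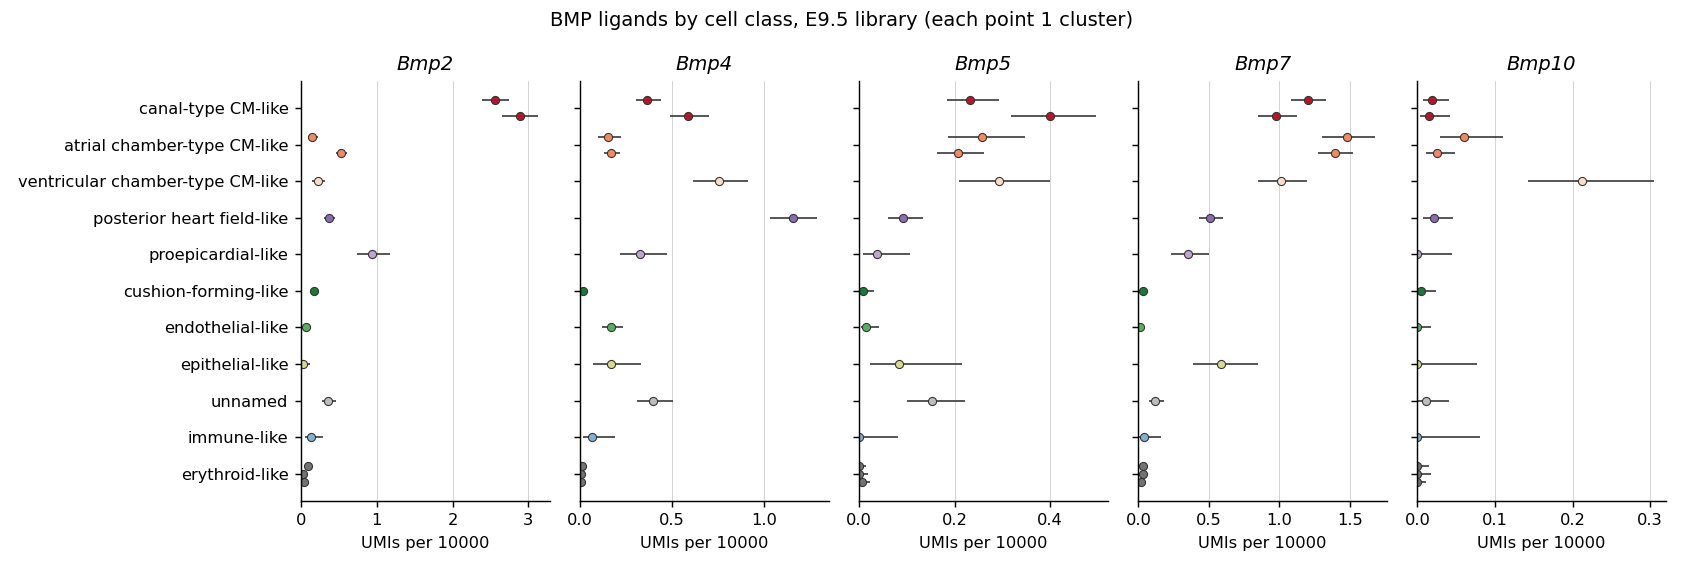
Levels of 5 BMP ligands in the E9.5 library. The x axes give UMIs per 10000 on linear scales that differ between panels, rows are cell classes (CM, cardiomyocyte), each point is 1 cluster and bars are exact Poisson 95% intervals. Both canal-type clusters stand at 2.56 and 2.89 for Bmp2, the heart field-like cluster leads for Bmp4 at 1.16, and the ventricular cluster leads for Bmp10 at 0.212.

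Id3, an inhibitor of basic helix-loop-helix factors that is widely used as a readout of BMP signalling, was highest in cushion-forming-like cells with 13.8 UMIs per 10000 (13.3 to 14.2), 4.40-fold the rest of the library. Endothelial-like cells followed with 9.74 (9.32 to 10.2), 2.80-fold the rest, then heart field-like cells with 7.12 and proepicardial or epicardial-like cells with 6.33. The intervals of the first 2 do not overlap. Canal-type cells had 3.14 (2.99 to 3.30), ventricular cells 1.57, atrial cells 1.12 and erythroid-like cells 0.290. The canal-type level was thus above that of both chamber-type classes and below the cushion-forming level.

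Smad6, the feedback inhibitor, had the highest fold of the 4 response genes in cushion-forming-like cells. These cells had 2.57 UMIs per 10000 (2.36 to 2.78), 4.96-fold the rest, and held 32.2% of the 1823 Smad6 UMIs although they were 8.71% of kept cells. Endothelial-like cells had 1.22 (1.08 to 1.38), 2.03-fold the rest. Canal-type cells came next with 0.897 (0.817 to 0.981), above ventricular cells at 0.454 (0.348 to 0.582) and atrial cells at 0.387 (0.336 to 0.445). After thinning, 66.3% of cushion-forming-like cells (56.4 to 75.3), 45.5% of endothelial-like and 38.7% of canal-type cells had a Smad6 UMI, against 2.06% of erythroid-like cells. In the cushion-forming cluster Id3 ranked 16th and Smad6 30th of 7483 genes by fold.

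Id1 was less selective. Epithelial-like cells had 3.64 UMIs per 10000 (3.12 to 4.23), 2.62-fold the rest and the only member raised there (4.67% of genes were). Cushion-forming-like cells had 3.32 (3.09 to 3.56), 2.61-fold the rest, endothelial-like cells 2.83 (2.61 to 3.07) and the unnamed Crabp1-positive cells 2.84, and in this last class Id1 was again the only member raised, against 2.39% of genes. The intervals of the epithelial-like and cushion-forming-like cells overlap, as do those of the endothelial-like and unnamed cells, while those of the cushion-forming-like and endothelial-like cells do not. Heart field-like cells had 1.97, canal-type cells 1.50 (1.40 to 1.61), ventricular cells 1.26, atrial cells 0.759 and erythroid-like cells 0.116.

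Id2 ran in another order and was the only one of the 4 response genes raised in the canal muscle. Canal-type cells had 12.9 UMIs per 10000 (12.6 to 13.2), 2.66-fold the rest, heart field-like cells 10.0 (9.67 to 10.4), proepicardial or epicardial-like cells 8.43 and atrial cells 7.24 (7.01 to 7.47). Cushion-forming-like cells had 7.22 (6.88 to 7.58), level with atrial cells, and endothelial-like cells had 3.96 (3.69 to 4.24). Id2 was therefore higher in cushion-forming-like than in endothelial-like cells, as Id3 and Smad6 were, but both classes lay below canal-type cells. Erythroid-like cells had 0.268.

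**Figure D2:**
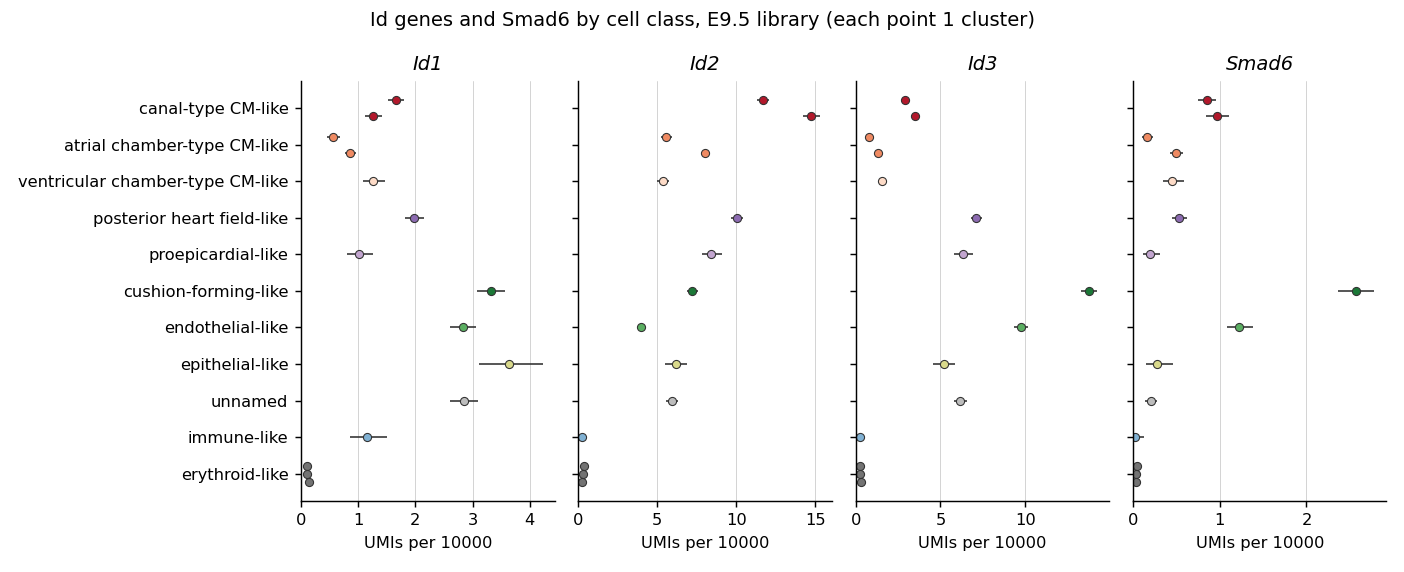
Levels of Id1, Id2, Id3 and Smad6 in the E9.5 library. The x axes give UMIs per 10000 on linear scales that differ between panels, rows are cell classes (CM, cardiomyocyte), each point is 1 cluster and bars are exact Poisson 95% intervals. Cushion-forming-like cells lead for Id3 at 13.8 and Smad6 at 2.57, and canal-type cells lead for Id2 at 12.9.

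Bmp2 and Bmp7 UMIs on the one hand and Id3 UMIs on the other lay largely in different classes, while Smad6 UMIs lay in both. Id2 was highest in the canal-type cells that lead for Bmp2. Heart field-like cells, which lead for Bmp4, came next after canal-type cells for Id2 and next after endothelial-like cells for Id3. Cushion-forming-like and endothelial-like cells held 1.95% and 0.6997% of the Bmp2 UMIs, and 0.466% and 0.116% of the Bmp7 UMIs, but 26.7% and 17.3% of the Id3 UMIs and 32.2% and 14.0% of the Smad6 UMIs. Canal-type cells, 18.6% of kept cells, held 70.7% of Bmp2, 34.1% of Bmp7 and 35.9% of Id2, but 14.0% of Id3. Their share of the Smad6 UMIs was 25.8%, between those of cushion-forming-like and endothelial-like cells. Canal-type cells were not free of response genes, since their Id1, Id3 and Smad6 levels all exceeded those of atrial cells with no overlap of intervals. These shares depend on how many cells of each class were captured, whereas the levels per 10000 UMIs do not.

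**Figure D3:**
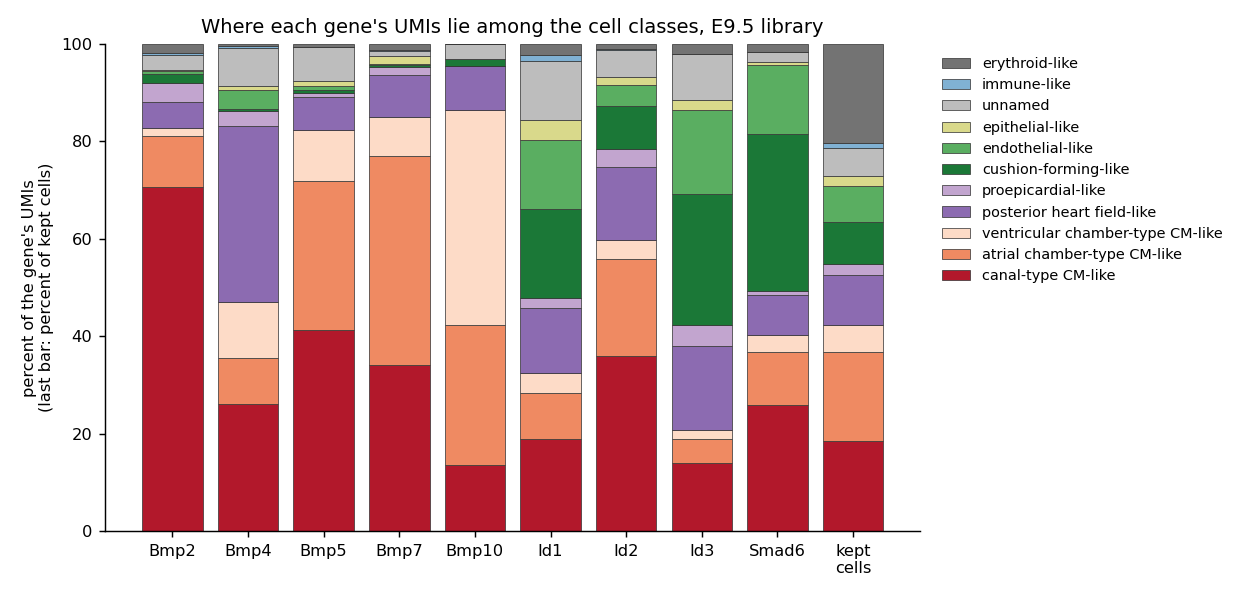
Share of the UMIs of each gene that lay in each class of the E9.5 library, in percent, with the share of kept cells in the last bar. Colours stand for the classes (CM, cardiomyocyte), from canal-type at the bottom to erythroid-like at the top. Canal-type cells hold 70.7% of Bmp2, and cushion-forming-like cells hold 32.2% of Smad6.

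Canal-type cells with and without a Bmp2 UMI were close in Id1 and Id3, while Id2 was higher and Smad6 lower in those with one. With every cell thinned to 5000 UMIs, the 124 cells with a Bmp2 UMI had 1.52 Id1, 3.35 Id3 and 0.871 Smad6 UMIs per 10000, against 1.43, 3.18 and 1.14 in the 98 cells without one. Id2 was 14.2 against 12.3 and Bmp4 0.790 against 0.286. The 37 canal-type cells with a Bmp4 UMI had 1.51 Id1, 12.5 Id2, 4.11 Id3 and 1.08 Smad6 per 10000. The 185 without had 1.47, 13.5, 3.11 and 0.973. Over all cardiomyocyte-like cells, which mix the classes, each response gene was higher in cells with a Bmp2 or Bmp4 UMI. With a Bmp7 UMI each was lower. For Id3 these levels were 3.11 against 1.75, 3.82 against 1.94 and 1.93 against 2.32. In heart field-like cells, the 35 with a Bmp4 UMI had 1.77 Id1, 12.4 Id2, 6.00 Id3 and 0.343 Smad6 per 10000, against 2.16, 8.98, 8.27 and 0.477 in the 88 without. These are cells of 1 library, so no test was made, and a single UMI divides the cells coarsely.

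Across clusters the ligands and Id1 or Id3 did not run together. The values below are Pearson correlations of log2(UMIs per 10000 + 0.1), which share 1 library and its depth and describe these clusters only. Over the 12 clusters other than erythroid-like ones, Bmp2 correlated at 0.52 with Id2 but at 0.03 with Id3 and −0.32 with Id1, and Bmp7 at 0.52 with Id2 but at −0.36 with Id3 and −0.58 with Id1. Id1 and Id3 correlated at 0.73 and Id3 and Smad6 at 0.66. Id2 correlated at 0.58 with Id3 and 0.58 with Smad6, but at 0.09 with Id1. Smad6 correlated at 0.21 with Bmp2 and −0.09 with Bmp7. Over all 15 clusters, where the near-empty erythroid-like clusters pull every pair together, Bmp2 and Id3 correlated at 0.34 and Id1 and Id3 at 0.86.

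Of 8676 genes with at least 200 UMIs, the 3 whose levels over the 15 clusters were most like each member are named here with their Pearson correlation. These 15 include the erythroid-like clusters, which pull pairs together, and likeness was not computed without them. For Bmp2 they were Mgarp (0.91), Prdm6 (0.90) and Dnajb4 (0.89), and for Bmp4 Prnp (0.90), Efs (0.89) and Sdc2 (0.88). For Bmp5 they were Eno3 (0.96), Tmem51 (0.96) and Ppp2r3a (0.95), and for Bmp7 Tceal5 (0.99), Dsp (0.97) and P4htm (0.96), Dsp encoding the desmosomal protein desmoplakin. For Id1 they were Wsb1, Ift22 and Fscn1 (each 0.97), for Id2 Ptms (0.98), Tubb2b (0.97) and Fbln1 (0.97), and for Id3 Mmp14 (0.98), a membrane-bound metalloproteinase, Rcbtb1 (0.96) and Pgm3 (0.96). For Smad6 they were Furin (0.96), which cleaves BMP precursors among others, Defb42 (0.94) and Ctsl (0.93).

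Among the 39 other BMP pathway genes, some were raised in the classes described above and some elsewhere. In cushion-forming-like cells the co-receptor Eng had 6.18 UMIs per 10000 (15.4-fold the rest), the BMP target Msx1 3.73 (12.8-fold), the extracellular modulator Bmper 0.603 (4.38-fold) and the inhibitory Smad7 0.839 (2.51-fold). In endothelial-like cells Eng had 3.51 (5.60-fold), the type I receptor Acvr1 0.406 (2.56-fold) and the endothelial receptor Acvrl1 0.205 (2.94-fold). In canal-type cells the target Msx2 had 1.34 (5.27-fold), the decoy receptor Bambi 4.89 (2.78-fold) and Id4 0.497 (2.74-fold). The receptor Acvr2b was raised in heart field-like cells (1.16, 2.56-fold), the antagonist Nog in proepicardial or epicardial-like cells (0.507, 3.25-fold) and the antagonist Fst in atrial cells (0.254, 2.17-fold). Acvr2b and the co-receptor Rgma were also raised in the unnamed and the epithelial-like cells, Fst, Msx1 and Msx2 in the unnamed cells, the antagonist Nbl1 in epithelial-like cells, Msx1 in endothelial-like cells, Acvr1 and Fstl1 in cushion-forming-like cells and Bambi in proepicardial or epicardial-like cells.

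In the mitral valve the ligands were near the limit of detection. The E16.5 library had 11 Bmp2, 7 Bmp4, 3 Bmp5 and 2 Bmp7 UMIs in 311 kept cells and none of Bmp6 or Bmp10. The P0 replicates had 51 and 11 Bmp2 UMIs and 56 and 18 Bmp4 UMIs, and no more than 2 UMIs of Bmp5, Bmp6 or Bmp7 in either. Bmp10 had 0 UMIs in all 3 valve libraries, which allows levels up to 0.0437 per 10000 at E16.5 and 0.0204 and 0.0379 at P0 (upper Poisson bounds). The 10 cardiomyocyte-like cells at E16.5 had 3 Bmp2 and 2 Bmp7 UMIs, or 0.809 (0.167 to 2.36) and 0.539 (0.0653 to 1.95) per 10000. For Bmp2 this was the highest of any class there, but with intervals that overlap those of the other classes. In these cells and in the unnamed E16.5 cells, Bmp2 and Id2 were the 2 of 5 members with at least 10 UMIs that were raised, against 13.3% and 11.6% of 6253 genes.

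Valve Bmp2 and Bmp4 lay in several classes. Interstitial-like cells, the fibroblast-like cells inside the leaflet, had 0.469 and 0.381 Bmp2 UMIs per 10000 at P0 (18 and 7 UMIs), against 0.101 at E16.5 (3 UMIs). Endothelial-like cells, with markers of the valve surface such as Npr3, had 0.232 and 0.0878 at P0 (7 and 2 UMIs), against 0.04998 at E16.5 (1 UMI). Interstitial-like Bmp4 was 0.495 and 0.163 at P0 (19 and 3 UMIs), against 0.0337 at E16.5 (1 UMI), and endothelial-like Bmp4 was 0.365 and 0.132 at P0 (11 and 3 UMIs), against 0.200 at E16.5 (4 UMIs). In P0 replicate 2 interstitial-like cells Bmp2 was the 1 of 6 members raised (3.19-fold the rest, on 7 UMIs), against 5.41% of genes, and in replicate 1 none was, against 4.66%. Both P0 values exceeded the E16.5 value in 3 of these 4 sets, but none of the 6 ligands had enough counts to enter any of the tests. When the filter on low counts was left out, the quasi-likelihood test of edgeR (p-values adjusted by Benjamini-Hochberg) called no ligand between P0 and E16.5, and its fold for interstitial-like Bmp4, 2.98 on the log2 scale (SE 1.25), had an adjusted p of 0.159. Against the E9.5 cushion-forming-like cells, which had 39 Bmp2 and 4 Bmp4 UMIs, P0 interstitial-like cells were then called higher for Bmp2 (log2 fold 1.46, SE 0.52, adjusted p 0.033) and Bmp4 (4.41, SE 0.775, adjusted p 3.89e-07). The Bmp4 fold rests on those 4 UMIs.

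Id1, Id2, Id3 and Smad6 passed the filter in every test. P0 was compared with E16.5 in interstitial-like, endothelial-like and capillary endothelial-like cells, the last marked by Fabp4 and Cd36, and with E9.5 in the first 2, by summing UMIs per library and class and applying edgeR's quasi-likelihood test with TMM scaling. A gene was called at a Benjamini-Hochberg adjusted p under 0.05 with the single earlier library outside the range of the 2 P0 libraries. The single E16.5 and E9.5 libraries were assumed to vary like the P0 pair, and each is set against the same P0 libraries. E16.5 differs from P0 in more than these genes. Malat1, a nuclear RNA, had 422 and 447 UMIs per 10000 in interstitial-like cells at P0, against 7.51 at E16.5, and 14 dissociation-stress genes summed to 81.6 and 86.4, against 23.2. The 84 cytosolic ribosomal protein genes summed to 2353 and 2396 at P0, against 3244 at E16.5. In endothelial-like cells Malat1 had 453 and 485 at P0, against 7.60 at E16.5, the stress genes 30.0 and 29.9, against 19.8, and the ribosomal protein genes 2033 and 2325, against 2955. In capillary cells Malat1 had 203 and 240 at P0, against 3.30 at E16.5, the stress genes 37.3 and 47.7, against 12.6, and the ribosomal protein genes 2367 and 2092, against 3208. Cardiomyocyte markers summed to 0.938 and 0.762 in interstitial-like cells at P0, with 1 and 7 of the 10 at 0, against 4.11 at E16.5 with 2 at 0. The part of these differences in the results below was not tested.

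Scaling matters for all P0 and E16.5 comparisons, because TMM multiplied the E16.5 library sizes by 0.712 in interstitial-like, 0.769 in endothelial-like and 0.725 in capillary cells. On plain library totals the median log2 fold of all genes tested shifted to 0.63, 0.55 and 0.90, against 0.09, 0.09 and 0.21 with TMM. The calls were 502 higher and 652 lower of 3900 genes in interstitial-like cells with TMM, but 1059 higher and 382 lower on library totals. In endothelial-like cells they were 414 higher and 565 lower of 4486 with TMM and 842 higher and 345 lower on library totals, and in capillary cells 551 higher and 658 lower of 3381 with TMM and 1257 higher and 357 lower on library totals.

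Id2 was higher at P0 than at E16.5 in all 3 classes, and under both scalings. In endothelial-like cells its TMM-scaled level was 4.49 and 4.05 UMIs per 10000 at P0, against 1.37 at E16.5 (log2 fold 1.65, SE 0.403, edgeR adjusted p 0.000598). In interstitial-like cells it was 1.58 and 1.42 at P0, against 0.615 at E16.5 (1.30, SE 0.467, adjusted p 0.0222). In capillary cells it was 0.604 and 1.33 at P0, against 0.289 at E16.5 (1.69, SE 0.654, adjusted p 0.0497). Both P0 libraries stood above E16.5 each time. Without P0 replicate 2 the capillary fold was 1.05 and without replicate 1 it was 2.19, and the E16.5 sums rest on 21, 13 and 4 Id2 UMIs in endothelial-like, interstitial-like and capillary cells. The endothelial-like call held in all 8 settings tried, with adjusted p between 1.24e-06 and 0.0318, while the interstitial-like call held in 5 of 8 and was lost with the members kept in clustering (0.70, adjusted p 0.507), at a coarser clustering (0.78, adjusted p 0.127) and by DESeq2 (1.23, adjusted p 0.168).

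Id3 was lower at P0 than at E16.5 in all 3 classes with TMM scaling. In interstitial-like cells its scaled level was 9.74 and 15.4 UMIs per 10000 at P0, against 21.4 at E16.5 (log2 fold −0.79, SE 0.203, edgeR adjusted p 0.000704). In endothelial-like cells it was 8.18 and 10.2 at P0, against 16.0 at E16.5 (−0.80, SE 0.297, adjusted p 0.0352), and in capillary cells 6.21 and 11.3 at P0, against 19.7 at E16.5 (−1.18, SE 0.303, adjusted p 0.00505). The interstitial-like and endothelial-like calls held in 5 of 8 settings each and the capillary call in 7 of 8. DESeq2 gave adjusted p of 0.0563 and 0.0795 in interstitial-like and endothelial-like cells, and edgeR lost the interstitial-like call with the members kept in clustering (−0.54, adjusted p 0.573) and the endothelial-like call without the filter on low counts (−0.71, adjusted p 0.125). None of these 3 calls held on library totals, where the folds were −0.25 (adjusted p 0.325), −0.35 (0.303) and −0.48 (0.152) in interstitial-like, endothelial-like and capillary cells. On those totals the interstitial-like level was 10.1 and 15.9 per 10000 at P0, against 15.3 at E16.5, with P0 replicate 2 slightly above E16.5. Without P0 replicate 1 the TMM fold was −0.48 in interstitial-like and −0.80 in capillary cells, and without replicate 2 it was −1.14 and −1.66.

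Id1 and Smad6 moved less evenly. In capillary cells Id1 was 2.096 and 3.17 UMIs per 10000 at P0, against 5.71 at E16.5 (log2 fold −1.13, SE 0.298, edgeR adjusted p 0.00619), a call that library totals did not keep (−0.43, adjusted p 0.212). In interstitial-like cells Id1 was 1.26 and 1.74 at P0, against 2.56 at E16.5, which was not called (−0.82, adjusted p 0.0627), and in endothelial-like cells 2.08 and 1.58 at P0, against 1.63 at E16.5 (0.18, adjusted p 0.787). Smad6 in endothelial-like cells was 0.946 and 0.980 at P0, against 0.455 at E16.5 (1.08, SE 0.587, adjusted p 0.184), called only on library totals (1.54, adjusted p 0.0353). In interstitial-like cells it was 0.276 and 0.211 at P0, against 0.568 at E16.5 (−1.16, SE 0.635, adjusted p 0.160), and in capillary cells 0.245 and 0.534 at P0, against 0.650 at E16.5 (−0.79, SE 0.722, adjusted p 0.417). The capillary Smad6 fold was −0.28 without P0 replicate 1 and −1.39 without replicate 2. The E16.5 Smad6 sums hold only 7, 12 and 9 UMIs in endothelial-like, interstitial-like and capillary cells.

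Counted together, 2 of 4 response genes were called between P0 and E16.5 in interstitial-like cells, against 29.6% of genes tested, 2 of 4 in endothelial-like cells, against 21.8%, and 3 of 4 in capillary cells, against 35.8%. By direction, 1 was higher and 1 lower at P0 in interstitial-like cells (12.9% and 16.7% of genes were), likewise 1 and 1 in endothelial-like cells (9.23% and 12.6%), and 1 and 2 in capillary cells (16.3% and 19.5%). The median log2 fold of the 4 genes was −0.81 in interstitial-like cells, 0.63 in endothelial-like cells and −0.96 in capillary cells, beside 0.09, 0.09 and 0.21 over all genes tested. With 4 genes, these counts are a description. The difference between the stage folds of endothelial-like and interstitial-like cells was tested as an interaction, and 0 of 4 members were called, against 1.37% of 4156 genes, 0.505% higher and 0.866% lower in endothelial-like cells. Smad6 differed most, with an interaction of 2.26 on the log2 scale (SE 0.824) and an unadjusted p of 0.00619, but an edgeR adjusted p of 0.198, and Id1 had 1.06 (unadjusted p 0.0323, adjusted p 0.385). Without P0 replicate 1 the Id1 interaction was 0.51, and without replicate 2 it was 1.43. By edgeR 2 of the 4 thus had an unadjusted p under 0.05, and Id2 and Id3 had interactions of 0.39 and 0.03 with adjusted p of 0.900 and 0.991.

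At P0 Smad6 was raised in endothelial-like cells. In P0 endothelial-like cells it had 1.03 and 1.01 UMIs per 10000 on library totals (0.699 to 1.46 and 0.640 to 1.52), 2.61-fold and 2.40-fold the rest of each P0 library. It was 1 of 2 members of 6 raised there in replicate 1 (the other was Id2, 2.65-fold), against 4.44% of genes, and the only one in replicate 2, against 6.38%. P0 interstitial-like cells had 0.287 and 0.218 (0.143 to 0.513 and 0.0593 to 0.557). The intervals of these 2 classes did not overlap in either P0 library. Capillary cells had 0.286 and 0.632 at P0 (0.640-fold and 1.31-fold the rest), and at E16.5 endothelial-like cells had 0.350 (0.985-fold) and interstitial-like cells 0.404, so Smad6 was not raised in every endothelial class or stage. Id1 was raised in capillary cells at E16.5 (4.14 per 10000, 2.81-fold the rest, against 6.48% of genes) and in P0 replicate 2 (3.76, 2.71-fold, against 7.2%), but not in P0 replicate 1 (2.44, 1.47-fold). At P0 Id2 was the only member raised in the immune-like cells of replicate 2 (9.15 per 10000, 3.92-fold, against 9.59% of genes). The immune-like cells of replicate 1 also carried endothelial markers, which summed to 42.2 per 10000 there, against 45.6 in the capillary cells of that library, while those of replicate 2 had 1.40. Id3 was raised in no class of the 3 valve libraries. No member at all was raised in E16.5 interstitial-like, endothelial-like and smooth muscle or pericyte-like cells (6.75%, 10.6% and 9.45% of genes were), in P0 replicate 1 capillary, immune-like and unnamed cells (3.62%, 5.28% and 2.6%), or in the unnamed cells of replicate 2 (5.57%).

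Set against the E9.5 cushion-forming-like cells, P0 interstitial-like cells had less of 3 response genes. Smad6 had a scaled level of 0.276 and 0.211 UMIs per 10000 at P0, against 1.96 at E9.5 (log2 fold −2.94, SE 0.402, edgeR adjusted p 4.59e-12). Id2 had 1.58 and 1.42 at P0, against 5.51 at E9.5 (−1.86, SE 0.268, adjusted p 6.48e-11), and Id1 1.26 and 1.74 at P0, against 2.53 at E9.5 (−0.81, SE 0.287, adjusted p 0.0143). Id3 had 9.74 and 15.4 at P0, against 10.5 at E9.5 (0.24, SE 0.200, adjusted p 0.341), with the P0 libraries on both sides of E9.5. That is 3 of 4 genes called, all lower, where 43.7% of genes were called 23.7% higher and 20% lower. The Smad6 and Id2 calls held in all 8 settings tried, and the Id1 call in 6 of 8. The calls over all genes were 926 higher and 780 lower with TMM and 692 higher and 1264 lower on library totals. The dissected tissue differs as well as the stage, and the E9.5 cells had 9 of 12 endothelial markers raised where no P0 interstitial-like cluster had any, so stage, tissue and cell state cannot be told apart. Endothelial markers summed to 3.60 and 2.78 UMIs per 10000 in P0 interstitial-like cells with 4 of 12 at 0 in each, against 13.8 in the E9.5 cells. Malat1 was 422 and 447 at P0, against 25.6 at E9.5, and cardiomyocyte markers were 0.938 and 0.762, against 18.5. The part of these differences was not tested.

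In endothelial-like cells none of the 4 response genes was called between P0 and E9.5, where 50.1% of genes were, 23.9% higher and 26.3% lower. Smad6 had a scaled level of 0.946 and 0.980 UMIs per 10000 at P0, against 1.05 at E9.5 (log2 fold −0.13, SE 0.332, edgeR adjusted p 0.752). Id1 had a fold of −0.40 (SE 0.294, adjusted p 0.246), Id2 of 0.33 (SE 0.281, adjusted p 0.319) and Id3 of 0.13 (SE 0.289, adjusted p 0.726). By unadjusted p none of the 4 was under 0.05 in edgeR, and DESeq2 called none either. Standard errors of 0.281 to 0.332 on the log2 scale leave room for changes in either direction, so the values do not show that the levels are equal. Whether the Smad6 stage fold differs between this pair and the interstitial-like pair was not tested.

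**Figure D4:**
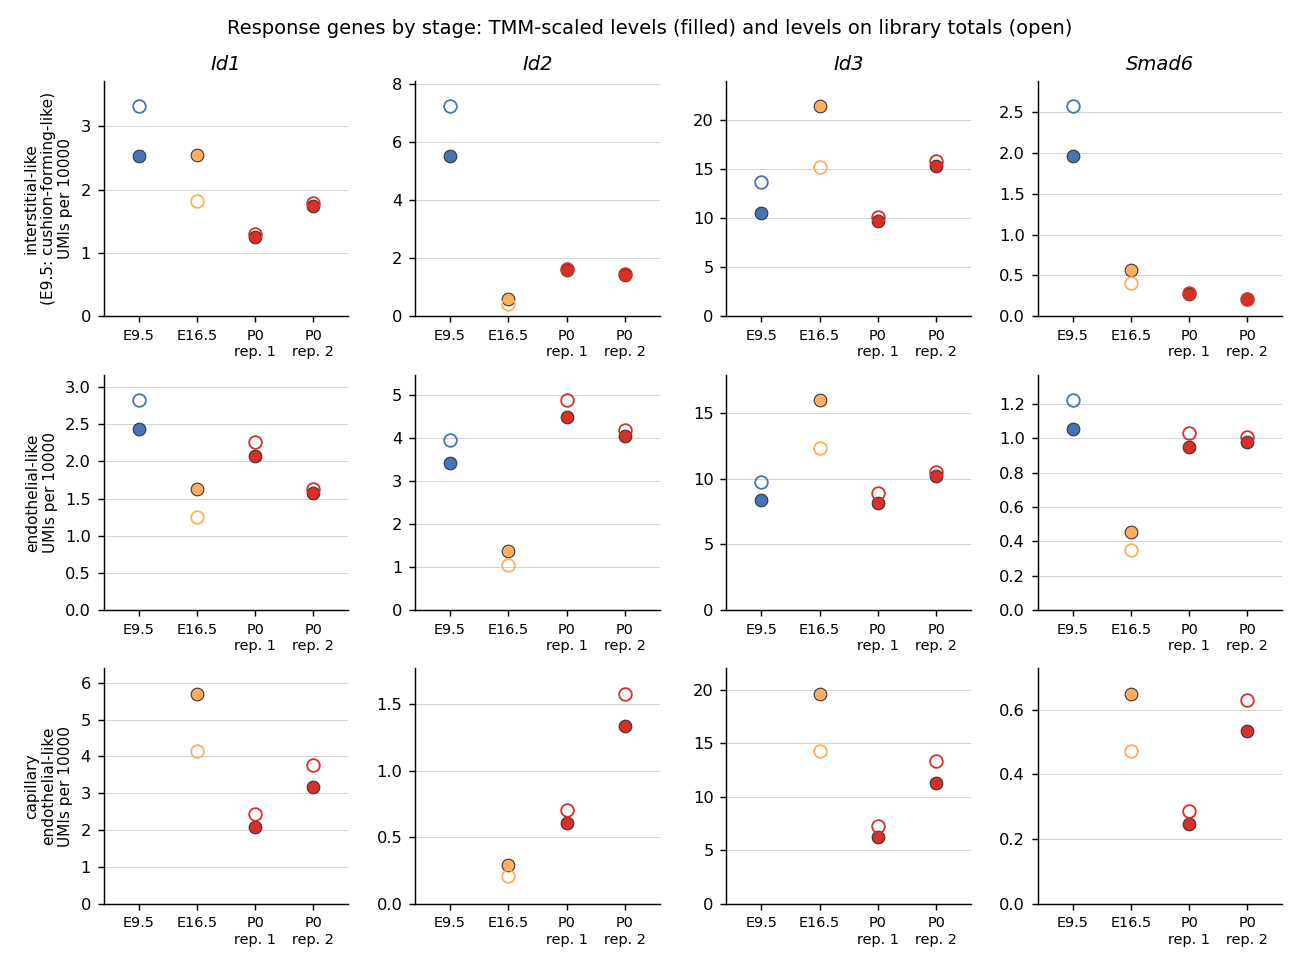
Levels of the response genes by stage in 3 cell classes, in UMIs per 10000 on axes that start at 0. Each point is the sum of 1 library and class, filled with TMM scaling and open on library totals, and E9.5 stands for cushion-forming-like cells in the top row. Interstitial-like Smad6 has scaled levels of 0.276 and 0.211 at P0, against 1.96 at E9.5, and endothelial-like Id2 has 4.49 and 4.05 at P0, against 1.37 at E16.5.

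**Figure D5:**
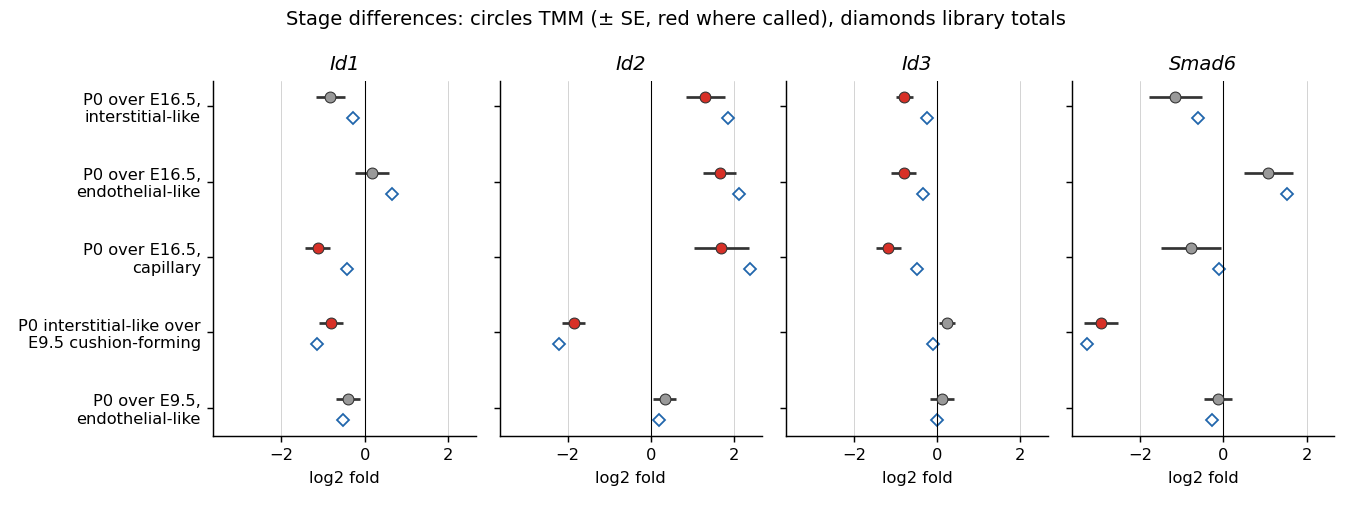
Log2 folds of the response genes in the 5 stage comparisons, P0 over the earlier stage. Circles are TMM-scaled folds with bars of 1 SE, red where called, and diamonds are folds on library totals. Id2 lies right of 0 in all 3 comparisons with E16.5 under both scalings, while the Id3 circles at −0.79, −0.80 and −1.18 move toward 0 as diamonds.

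Of the 39 other pathway genes, 7 to 12 could be tested per stage comparison, and Fstl1, which encodes a secreted follistatin-like protein, rose in all 5 by edgeR. In interstitial-like cells it had scaled levels of 16.6 and 13.9 UMIs per 10000 at P0, against 6.72 at E16.5 (log2 fold 1.19, edgeR adjusted p 1.12e-05), and the only other of the 12 tested to be called was Id4, with 1.08 and 1.37 at P0, against 0.142 at E16.5 (3 UMIs, log2 fold 3.07, adjusted p 0.00123), so 2 of 12 were called beside 29.6% of all genes tested. In endothelial-like cells 2 of 11 were called (21.8% of all genes tested), Fstl1 (1.37, adjusted p 0.000718) and, lower at P0, Bambi (−1.86, adjusted p 0.0246). In capillary cells 4 of 7 were called (35.8% of all genes tested): Smad1, a Smad that BMP receptors phosphorylate (2.84, adjusted p 0.00213), and Fstl1 (1.56, adjusted p 0.00453) were higher, and the endothelial receptors Eng (−0.999, adjusted p 0.0103) and Acvrl1 (−1.87, adjusted p 0.0368) were lower at P0. On library totals Eng (−0.31, adjusted p 0.364), Acvrl1 (−1.18, adjusted p 0.173) and Bambi (−1.39, adjusted p 0.0999) were not called. The medians of the tested pathway genes were 0.97, 0.90 and 0.96 on the log2 scale in interstitial-like, endothelial-like and capillary cells, beside the medians over all genes given above.

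Against E9.5, 5 of 12 pathway genes were higher and 3 lower in P0 interstitial-like cells, beside 23.7% and 20% of all genes tested. Fstl1 (log2 fold 3.14, edgeR adjusted p 1.13e-34), Id4 (4.86, adjusted p 6.95e-14), Bmper (1.23, adjusted p 0.00102) and the type I receptor Bmpr1a (1.35, adjusted p 0.0157) were higher, and Eng (−1.98, adjusted p 2.37e-11) and Msx1 (−1.33, adjusted p 7.6e-05) lower, Msx1 with a fold of −0.80 without P0 replicate 1 and −1.78 without replicate 2. In endothelial-like cells 7 of 11 were higher and 2 lower at P0, beside 23.9% and 26.3% of all genes tested. Fstl1 (2.70, adjusted p 8.4e-16), Eng (1.50, adjusted p 4.67e-06), the type II receptor Bmpr2 (1.87, adjusted p 3.54e-05) and Bmpr1a (2.19, adjusted p 5.86e-05) were higher, and Bambi (−2.28, adjusted p 1.79e-06) and Msx1 (−2.37, adjusted p 8.8e-06) lower. Without P0 replicate 1 the Bmpr1a fold there was 1.43, and without replicate 2 it was 2.62. DESeq2 did not call Bmpr2, Bmpr1a, Bambi or Msx1 in endothelial-like cells, or Bmper, Bmpr1a or Msx1 in interstitial-like cells. The co-receptor Eng thus had opposite signs in the 2 comparisons, with 8.76 and 8.27 UMIs per 10000 at P0, against 3.02 at E9.5, in endothelial-like cells, and 1.16 and 1.26 at P0, against 4.72 at E9.5, in the interstitial pair. That difference between the comparisons was not tested. The interaction test called 0 of 15 pathway genes, beside 1.37% of all genes tested, and by edgeR none of the 15 had an unadjusted p under 0.05.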

How the data were processed

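Single-cell libraries (10x 3′, sequenced for 57 nt on a NextSeq 500, per the labels' protocols) were processed with Cell Ranger 2.1.1 on mm10, per the submitters' processing notes. The deposited values are UMI counts per gene and cell, with no normalization. Barcode and gene tables are text. The P0 barcode lists are exchanged in length (211 and 291), so cells were taken by column. Those lists share 4 barcodes, and barcodes entered only the alternative that leaves these cells out, for which each matrix took the list of its own length. In the gene list of P0 replicate 1, 15 symbols had become dates, so gene IDs were used.

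Cells with under 500 genes, over 10% mitochondrially encoded UMIs or a doublet call (Scrublet in scanpy 1.11.5) were left out. Each library was clustered alone (2000 variable genes, 20 components, 15 neighbours, Leiden resolution 1.0) without the 10 members and 39 pathway genes. Names needed at least 0.5 of a marker list among 19 lists, a threshold set after the clusters were seen, and clusters below it stayed unnamed (5.70%, 11.6%, 26.6% and 17.3% of kept cells at E9.5, E16.5 and in P0 replicates 1 and 2). UMI sums per library and class were tested with edgeR 4.0.16 (quasi-likelihood, TMM, Benjamini-Hochberg over all genes tested), keeping genes above the CPM that 10 counts make in the smallest sum. Each fit had 1 residual degree of freedom. In the capillary comparison edgeR took the spread of a gene mainly from all genes together. In the other comparisons it took that spread wholly from all genes, so a gene's own difference between the P0 libraries carried no weight. DESeq2 1.42.0, other scalings, no filter, other clusterings and leaving out a P0 replicate were tried.

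The members and lists were chosen with earlier results of these data known. All members are named, and of the pathway genes those called, up to 6 per comparison by smallest adjusted p. The test was tested on simulated counts with known changes over 5 draws: of genes changed by 2 on the log2 scale it recovered 57.4%, 52.2% and 48% in the P0 and E16.5 comparisons of interstitial-like, endothelial-like and capillary cells, 88.6% and 65.8% in the E9.5 comparisons of interstitial-like and endothelial-like cells, and 15.6% in the interaction. Of genes changed by 1 on the log2 scale, the test recovered 13.2%, 7.4% and 6.6% in those P0 and E16.5 comparisons. In the E9.5 comparisons it recovered 40.4% and 17.6%, and in the interaction 1.4%, so changes of that size were mostly missed. Every simulated library was given the same spread, also the unreplicated E9.5 and E16.5 ones, and all other genes were flat. The rates hold for that setting only. Intervals cover counting error only.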

Additional observations from a re-analysis of the deposited data

Results flagged for a closer look

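Smad6 had opposite directions between P0 and E16.5 in endothelial-like and capillary endothelial-like cells. Both P0 libraries were above E16.5 in endothelial-like cells (log2 fold 1.08) and both were below it in capillary cells (log2 fold −0.79), a gap of 1.86. Neither fold was called by edgeR, and the difference between them was not tested. The capillary direction in both P0 libraries holds with TMM scaling, whereas on library totals the capillary level was 0.286 and 0.632 UMIs per 10000 at P0, against 0.471 at E16.5. The capillary fold was −0.28 without P0 replicate 1 and −1.39 without replicate 2.

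Id2 also had opposite directions against E9.5. Both P0 libraries were above E9.5 in endothelial-like cells (log2 fold 0.33, not called) and both were below it in P0 interstitial-like cells set against E9.5 cushion-forming-like cells (log2 fold −1.86, called), a gap of 2.19. The difference was not tested, and the second pair differs in cell state as well as stage.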

How the results depend on the processing

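Of 160 recomputed member folds with a test, 137 kept their direction and side of the threshold, 14 lost their call, 2 gained one and 7 changed sign. The sign changes all concern Id3 folds near 0. Against E9.5, Id3 became −0.10 in interstitial-like cells on library totals (0.24 with TMM), and −0.0103 on library totals and −0.14 without the filter in endothelial-like cells (0.13 with TMM). Its interaction of 0.03 became −0.0747 on library totals, −0.0014 without the filter, −0.28 with the members kept in clustering and −0.0508 at Leiden resolution 0.7. Without 1 P0 replicate (values with no test), Id1 between P0 and E16.5 in endothelial-like cells ranged over −0.0432 to 0.35, Id3 against E9.5 over −0.11 to 0.55 in interstitial-like and −0.0361 to 0.28 in endothelial-like cells, and the Id3 interaction over −0.17 to 0.23. The gained calls were Id1 in interstitial-like cells with DESeq2 size factors (adjusted p 0.0423) and Smad6 in endothelial-like cells on library totals.

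DESeq2 called fewer genes: 438 against 1154 between P0 and E16.5 in interstitial-like cells, 295 against 979 in endothelial-like and 391 against 1209 in capillary cells, 480 against 1706 and 507 against 2248 in the E9.5 comparisons of interstitial-like and endothelial-like cells, and 7 against 25 calls of other pathway genes. It gave no adjusted p for 4 member folds. With the members kept in clustering the calls were 419 between P0 and E16.5 and 484 against E9.5 in interstitial-like cells, and 23 in the interaction, which had 57 calls and 35 without the filter. The cause was not tested. Against E9.5 the endothelial-like calls were 1070 higher and 1178 lower with TMM and 914 higher and 1321 lower on library totals. Without thinning, 77.9% of canal-type cells had a Bmp2 UMI (55.9% thinned). Bmp4 in heart field-like cells was 1.37 and 1.35 per 10000 under the other clusterings (1.16 above), while the other E9.5 levels compared moved less than their intervals. Leaving out cells at barcodes on both P0 lists was an alternative chosen after seeing the data. All 24 member folds kept their direction and side of the threshold. In interstitial-like and capillary cells its calls and median folds equalled the main ones (1154 and 1209 calls against E16.5, 1706 against E9.5). The member folds of those comparisons were therefore not put to a test by it. No pairing of libraries between stages was possible, because E9.5 and E16.5 have no replicate. In the interaction test library was a term of the model, so the classes were compared within each library. Ligands in the valve are limited by depth, at 11 Bmp2 UMIs in the whole E16.5 library.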
